A study of Mus musculus with 23 samples.

Results

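The cytoplasmic ribosomal protein genes, which encode the proteins of the small and the large subunit of the ribosome, were followed by 3′ tag sequencing in mouse embryonic stem cells (ESCs). Members were chosen by symbol: Rps or Rpl followed by a number, with an optional a, x or l, plus Rplp0, Rplp1, Rplp2 and Rpsa, leaving out Rps27l, Rpl22l1, the S6 kinases and named pseudogenes. The rule gave 82 members of the 55573 genes in the count files, 31 of the small and 51 of the large subunit. Rps4l, Rpl6l and Rpl32l pass the rule by name, although the GENCODE M21 annotation lists them as processed pseudogenes.

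Set 1 held R1 ESCs labelled SET-/-, as 2 samples of line KO1 and 2 of line KO2 (together KO), and 2 samples labelled wild type (WT). Set 2 held KO and WT cells treated for 4 d with retinoic acid (RA), an inducer of differentiation, as 2 samples and 1 sample, and untreated cells as 2 KO1, 2 KO2 and 2 WT samples. KH2 ESCs carrying HA-tagged SETa behind a doxycycline-inducible promoter were sampled after 24 h of 1 μg/mL doxycycline (Dox) and without Dox, 2 samples each. SET is a histone chaperone and an inhibitor of the phosphatase PP2A, and the series asks how it bears on ESC differentiation. All cells grew on mouse embryonic fibroblast feeders with serum and LIF, and the labels give neither the clone of each KO line nor whether replicates were separate cultures. The p-values below therefore measure only how these samples vary, and that variation may be technical. Samples are named by their title codes (1a to 1f, 2a to 2i), and 4 codes with 2 libraries each were summed.

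Assigned counts per sample ran between 806412 and 10217040. Levels are given as CPM, counts scaled to the assigned total of the sample. One tag is read per polyadenylated transcript, and values are not divided by gene length. Fold changes are log2 values from edgeR, with p-values adjusted over all genes tested and called under 0.05. Set itself was at 19.2 to 28.4 CPM in KO and 1059 to 1096 CPM in WT of set 1, but at 260 to 559 CPM in KO and 1136 to 1316 CPM in WT of set 2, so the libraries labelled KO in set 2 still held Set tags. The labels do not say how the gene was disrupted, and a 3′ tag outside a deleted part checks nothing. All 10 ESC markers examined had counts in every group.

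Each ribosome holds 1 copy of most of its proteins, and cells make them in matched amounts by translating their mRNAs together. Most of these mRNAs start with a C and a run of pyrimidines, the terminal oligopyrimidine (TOP) tract, which the LARP1 and mTOR pathway uses to set their translation. Ribosomal protein genes also have many processed pseudogene copies in mammalian genomes, and reads that fit several places were not counted here. A few members, among them Rpl10l and Rpl39l, are autosomal paralogs of X-linked genes and are known above all from the testis.

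The sequences behind the main results are shown first. Rpl39l and Rpl39 encode paralogous small proteins of the peptide exit tunnel, each in 156 coding bases, of which 23 differ (85.3% identity). Their coding sequences, from GENCODE M21 on GRCm38, are printed because Rpl39l and its X-linked partner are compared below; capitals mark the bases that differ. Rpl39l lies on the plus strand at chr16:10174310-10174465, and Rpl39 on the minus strand at chrX:37082701-37085127, introns included.
Rpl39l: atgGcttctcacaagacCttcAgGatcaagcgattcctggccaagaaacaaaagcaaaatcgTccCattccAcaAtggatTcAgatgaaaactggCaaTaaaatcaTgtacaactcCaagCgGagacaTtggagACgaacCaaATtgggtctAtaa
Rpl39: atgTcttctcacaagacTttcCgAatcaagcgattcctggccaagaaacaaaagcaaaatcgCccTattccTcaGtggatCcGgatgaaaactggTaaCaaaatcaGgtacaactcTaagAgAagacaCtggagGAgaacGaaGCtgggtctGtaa
Rpl10l and Rpl10 are likewise of equal coding length (645 bases), with 98 differing bases (84.8% identity).

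Start regions of 4 members are shown for the pyrimidine run that TOP mRNAs begin with. Each stretch holds 50 bases before and 20 from the start annotated by RefSeq (GRCm38.p6), and capitals mark a C followed by at least 7 more pyrimidines (C or T) on the sense strand, overlapping runs merged. They are Rpl10l (minus strand, chr12:66284382-66284451), Rpl39l (plus strand, chr16:10170178-10170247), Rps25 (plus strand, chr9:44407664-44407733) and Rplp2 (plus strand, chr7:141447601-141447670).
Rpl10l: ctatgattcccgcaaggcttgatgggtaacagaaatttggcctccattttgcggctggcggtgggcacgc
Rpl39l: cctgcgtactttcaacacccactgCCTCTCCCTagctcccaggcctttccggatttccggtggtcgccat
Rps25: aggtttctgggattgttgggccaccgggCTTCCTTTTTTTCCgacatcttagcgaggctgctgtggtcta
Rplp2: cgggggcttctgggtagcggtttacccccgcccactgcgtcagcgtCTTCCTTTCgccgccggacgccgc
A run of this kind lay in the same 70-base window of 37 of the 60 members with a RefSeq entry (61.7%) and of 6764 of 27025 genes in all (25%). The run in Rplp2 spans the annotated start, that in Rps25 lies upstream of it, and Rpl10l had none in this window.

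Ribosomal protein genes took a smaller share of the counts in KO than in WT samples of both sets, and a still smaller one after RA. In set 1 the 82 members held 8.13, 8.50, 8.22 and 8.89% of the counts in KO (1c to 1f), against 9.15 and 9.05% in WT. In set 2 they held 4.34, 4.42, 4.30 and 4.44% in untreated KO (2c to 2f), against 4.75 and 4.67% in WT. The ranges of these samples did not overlap in either set, with differences in means of -0.665 and -0.335 percentage points. Before libraries of a code were summed, single libraries of set 2 did overlap, at 4.21 to 4.69% in KO and 4.50 to 4.89% in WT. Without Rps14, the most abundant member, the ranges of set 1 overlapped, at 7.63 to 8.58% in KO and 8.57 to 8.88% in WT. Those of set 2 did not, at 3.28 to 3.35% in KO and 3.52 to 3.59% in WT. After RA the share was 2.94 and 2.88% in KO and 2.92% in the WT sample, all below every untreated sample. With Dox the KH2 cells held 5.86 and 6.46%, against 6.04 and 6.63% without Dox, and these ranges overlapped. A share is a part of a fixed whole, so a lower one can also come from more counts in other genes.

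**Figure D1:**
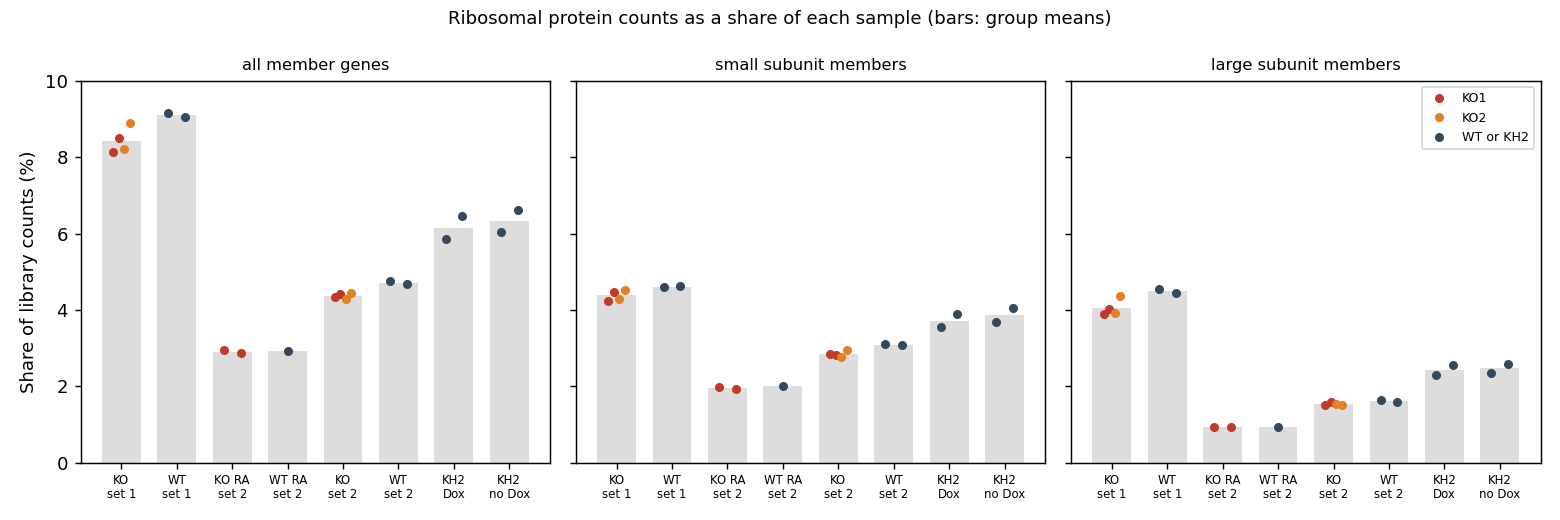
Share of each sample's counts (y axis, %) in all 82 ribosomal protein genes, in the 31 small and in the 51 large subunit members; points are samples, bars group means. Set 1 samples sit between 8.13 and 9.15%, untreated set 2 samples between 4.30 and 4.75%, and RA samples between 2.88 and 2.94%.

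The separate groups of libraries differed far more than the conditions did, and member by member. Over the members with at least 10 CPM in 1 of the 2 groups, the mean of WT set 2 was at most 0.1 of the mean of WT set 1 for 34 of 77 members, while 1.31% of all 9267 genes of that level lay that low. No member was at 10 or more, against 0.388% of all genes. In KO the same held for 33 of 77 members (1.44% of all genes), with none at 10 or more (0.266% of all genes). Rps29 averaged 17.8 ± 3.15 CPM in WT set 2, against 2636 ± 219 CPM in WT set 1 (SD, n = 2 each). Rps12, which also lost nearly all its tags, stood at 49.6 and 54.7 CPM in WT set 2, against 4458 and 3954 CPM in WT set 1. Rpl3, a protein near the peptidyl transferase centre, stood at 8.01 and 6.66 CPM in WT set 2, against 895 and 1227 CPM in WT set 1. None of these ranges overlapped.

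Only 7 of the 77 members were higher in WT set 2 than in WT set 1, the strongest of them Rps14, a platform protein of the small subunit. Rps14 stood at 11602 and 11447 CPM in WT set 2, against 2624 and 4837 CPM in WT set 1, a ratio of means of 3.09. Rps4l followed at 2.75, Rpl8 at 1.70, Rps3 at 1.67, Rpl14 at 1.65 and Rpl10l at 1.61; Rplp1 was at 1.15. Rps14 alone held 24.4 and 24.5% of all member counts in WT set 2, against 2.87 and 5.34% in WT set 1. The order of the 82 members by level followed that of WT set 1 loosely (Spearman rho 0.574, as a description). Members under 10 CPM numbered 12 to 19 in set 2 samples and 4 to 5 in set 1 samples.

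KH2 cells without Dox resembled set 2 in this respect. Against WT set 1, 30 of 78 members stood at most at 0.1 in KH2, with 1.28% of all genes that low, and no member at 10 or more (1.39% of all genes). Against WT set 2, none of 74 members did (0.209% of all genes), 3 were at 10 or more (Rpl29, Rpl30 and Rpl34, named after their values were seen; 1.29% of all genes), and the order of members by level had a rho of 0.938.

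**Figure D2:**
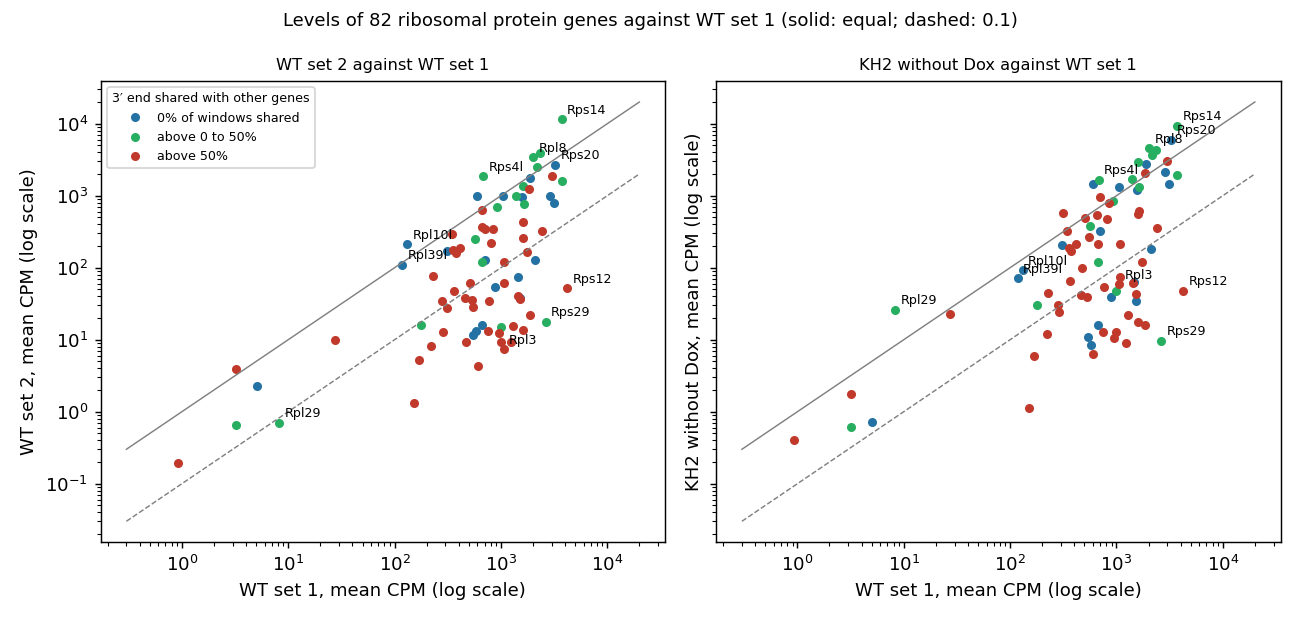
Mean CPM of each ribosomal protein gene (log axes) in WT set 2 (left) and in KH2 ESCs without Dox (right), both against WT set 1; colours give the share of 3′ end windows found in other genes. Of the members compared, 34 of 77 on the left and 30 of 78 on the right lie on or below the dashed line at 0.1.

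Members with few tags outside set 1 often shared their 3′ end sequence with other genes, as did many of the members compared. Of 50-base windows in the last 200 bases of their transcripts, 44 of the 77 members shared over 50% with a transcript of another gene. These 44 included 24 of the 34 members at most at 0.1 in WT set 2 over WT set 1. Their median ratio was 0.0843. For the 275 other genes with as many shared windows the median ratio was 0.459. For 15 members with above 0 to 50% shared it was 0.708, with 3 at most at 0.1, against 0.786 for 523 other genes. For 18 members with no shared window it was 0.299, with 7 at most at 0.1, against 0.906 for the 8385 other genes without one. The members' ratios thus did not fall step by step with the share of shared windows. Rpl5, Rpl11, Rpl12 and Rpl23 are among the members with no shared window that were at most at 0.1. Named pseudogenes of these genes held 0.467 to 0.649% of counts in set 1, 0.235 to 0.294% in KH2 and 0.110 to 0.162% in set 2. Whether shared sequence accounts for the difference was not tested, and set cannot be told apart from any step of culture, library preparation or counting that went with it. Levels of different members are therefore compared within a set only.

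Ribosomal genes outside the name rule varied between the sets in the same way as the members, some low and some high in set 2. Fau, which encodes a small subunit protein fused to a ubiquitin-like domain, stood at 6.16 and 7.93 CPM in WT set 2, against 522 and 560 CPM in WT set 1. Rack1, the scaffold protein on the head of the small subunit, stood at 3872 and 3841 CPM in WT set 2, against 2238 and 2210 CPM in WT set 1. Among the paralogs left out of the members, Rps27l stood at 281 and 311 CPM in WT set 2, against 821 and 603 CPM in WT set 1. Rpl22l1 stood at 22.5 and 28.0 CPM in WT set 2, against 101 and 93.5 CPM in WT set 1.

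Samples labelled KO were compared with WT next; in set 2 these KO samples had lower Set levels and not its absence (425 ± 131 CPM, n = 4, against 1226 ± 127 CPM in WT, n = 2, SD). Over both sets, 3 of 78 members tested were called, all lower in KO: Rpl10l, Rps20 and Rpl39l. Among all genes, 19.0% were called in either direction, 10.4% higher and 8.58% lower, so that 3 of 78 is below the background. Of the 78 members, 64 had a negative log2 fold change (82.1%, against 52% of all genes), with a median of -0.15 for the members and -0.02 for all genes. The median of the members stayed negative under each scaling tried, at -0.12 with library totals alone. The same 3 members were called in each set fitted alone, where 12.2% of genes in set 1 (4.96% lower, 7.25% higher) and 9.19% in set 2 (3.55% lower, 5.64% higher) were called. Only Rpl10l kept these calls under every alternative tried. Rpl39l lost its call under 2 of 14 alternatives in set 1 and 10 of 17 in set 2. Rps20 lost its call under 5 of 14 in set 1 and 2 of 17 in set 2.

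Rpl10l, the paralog of Rpl10 at the intersubunit face of the large subunit, fell most (chromosome 12, 66283379 to 66284401, minus strand, GRCm38). It stood at 42.2, 66.8, 47.6 and 37.4 CPM in KO of set 1, against 136 and 126 CPM in WT. In set 2 it stood at 114, 107, 107 and 116 CPM in KO, against 213 and 207 CPM in WT. KO and WT samples did not overlap in either set, and KO1 and KO2 lay side by side. The log2 fold change over both sets was -1.16 (SE 0.13, adjusted p = 7.77e-07), and the gene was called under all 22 alternatives tried for that comparison. Rpl10 itself had a log2 fold change of -0.18 that was not called (adjusted p = 0.385). Of its 3′ end windows 100% were shared with other genes, against 0% for Rpl10l. It averaged only 8.02 CPM in KO and 8.08 CPM in WT of set 2, so the 2 genes are not measured alike.

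Rpl39l (chromosome 16, 10170226 to 10174911, plus strand) stood at 80.6, 71.8, 73.2 and 51.2 CPM in KO of set 1, against 120 and 116 CPM in WT. In set 2 it stood at 66.7, 95.1, 80.3 and 92.2 CPM in KO, against 112 and 108 CPM in WT. All KO samples lay below all WT samples of their set. The log2 fold change was -0.59 over both sets (SE 0.12, adjusted p = 0.00134), called under all 22 alternatives. In set 2 alone it was -0.42 (adjusted p = 0.0448), and the call was lost without either WT sample (adjusted p = 0.236 without 2a and 0.256 without 2b) and without 2c, 2d or 2e (0.0899, 0.056 and 0.149). In set 1 alone (-0.78, adjusted p = 0.0143) it was lost without 1a or 1b (0.11 and 0.0612). Rpl39, whose sequence is printed above, had a log2 fold change of -0.37 and was not called (adjusted p = 0.0566). In set 2 its KO samples also lay below its WT samples, at 104, 99, 105 and 105 CPM against 119 and 137 CPM.

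Rps20, a protein of the head of the small subunit (chromosome 4, 3831334 to 3835665, minus strand), was the most abundant of these 3 genes. It stood at 2097, 2299, 2408 and 2621 CPM in KO of set 1, against 3713 and 2793 CPM in WT. In set 2 it stood at 1681, 1342, 1656 and 1811 CPM in KO, against 2834 and 2535 CPM in WT. The groups did not overlap, although the 2 WT samples of set 1 differed from each other more than the lowest of them did from the nearest KO sample. The log2 fold change was -0.63 over both sets (SE 0.10, adjusted p = 0.000134) and -0.47 in set 1, where the call was lost without 1a (adjusted p = 0.514), 1c (0.135) or 1e (0.118).

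The untreated set 2 libraries were split into 2 sub-batches at the largest gap along the first component of their profiles (31% of variance). Line means were removed first. No label names such a batch, and a split of this kind always gives 2 groups. Codes with 2 libraries had 1 in each, so A and B share samples and are not independent of each other. Calls within them therefore add no separate support and are given as a description. Within sub-batch A, Rpl10l stood at 102, 89.9 and 116 CPM in KO libraries, against 196 and 199 CPM in WT, and within B at 114, 110 and 113 CPM in KO, against 228 and 235 CPM in WT. Rps20 stood at 1032, 2425 and 1811 CPM in KO and 3160 and 2552 CPM in WT of sub-batch A, and at 1681, 1538 and 1390 CPM in KO and 2563 and 2477 CPM in WT of B. Rpl39l stood at 109, 100 and 92.2 CPM in KO and 115 and 110 CPM in WT of A, a narrow gap, and at 66.7, 86.4 and 73.3 CPM in KO and 111 and 101 CPM in WT of B. The KO libraries lay below the WT libraries of their sub-batch for each of these genes. Within A alone, only Rpl10l was called (log2 -0.94, adjusted p = 0.000942), while Rps20 (-0.70, adjusted p = 0.463) and Rpl39l (-0.17, adjusted p = 0.59) were not. Within A, 1 of 76 members was called, where 4.06% of all genes were. Within B alone all 3 were called, among 12 of 76 members (2 higher, 10 lower), where 13.7% of all genes were called. The set 2 log2 fold change of Rps20 was -0.75 (SE 0.12, adjusted p = 0.000344). With sub-batch as a covariate and each library as its own sample, it was -0.74 and not called (adjusted p = 0.0656). The share of counts in members was 4.69, 4.54 and 4.44% in KO and 4.89 and 4.72% in WT of A, and 4.34, 4.25 and 4.21% in KO and 4.64 and 4.50% in WT of B.

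**Figure D3:**
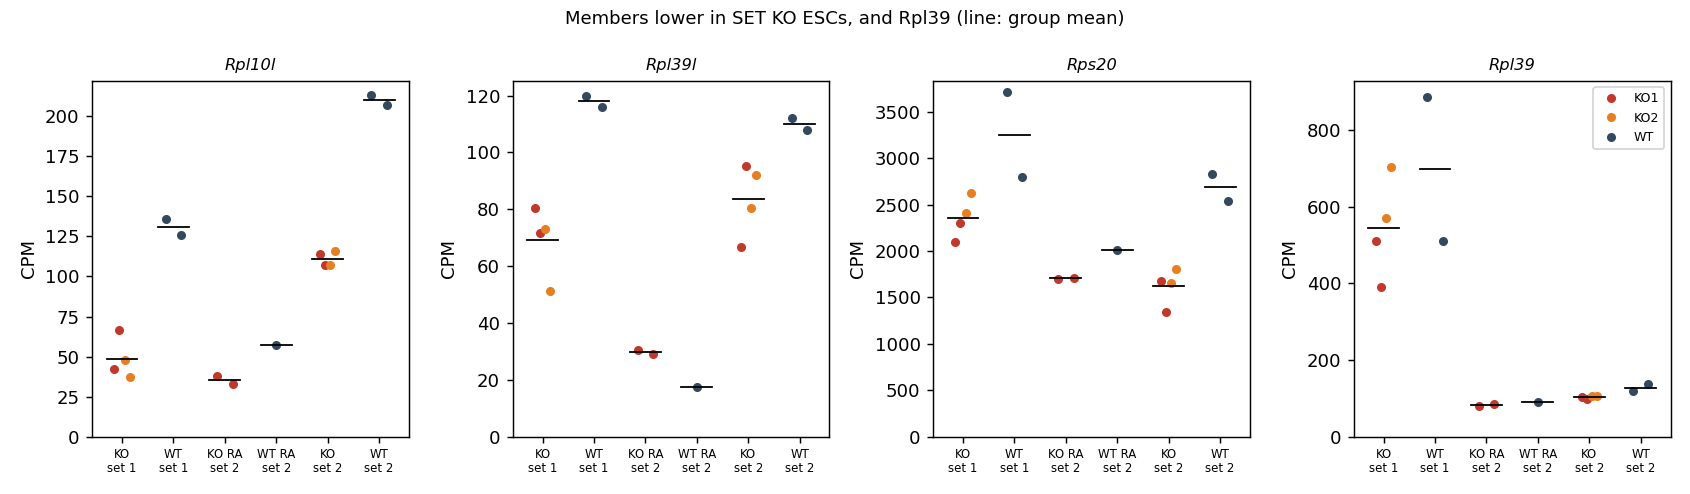
CPM of Rpl10l, Rpl39l and Rps20, the members called lower in KO, and of Rpl39 in each R1 sample (points; lines are group means; colours give the line). KO samples lie below WT samples of the same set for the first 3 genes, whereas the Rpl39 ranges overlap in set 1.

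The other highly expressed members were not called. Rps14 had a log2 fold change of 0.03 (SE 0.18), Rps3, at the mRNA entry of the small subunit, of -0.03 (SE 0.08), Rpl8, near the peptidyl transferase centre, of 0.005 (SE 0.083), and Rplp1, of the stalk that recruits translation factors, of -0.04 (SE 0.11). The other stalk genes, Rplp0 and Rplp2, were at 0.02 (SE 0.09) and 0.01 (SE 0.16), and none of these was called. Rpl5 and Rpl11, which with 5S rRNA bind Mdm2 and so reach p53, had log2 fold changes of -0.31 (adjusted p = 0.0756) and -0.15 (adjusted p = 0.57). The Rpl11 value averages opposite signs, -0.48 in set 1 and 0.45 in set 2, neither called, and their difference of 0.93 had an adjusted p of 0.118. Rps4l was at -0.19 (adjusted p = 0.2).

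Lists of related genes, chosen with earlier results of these data known, are given by their counts, to be read against the 8.58% of all genes called lower and 10.4% called higher. Of 43 ribosome assembly genes tested, none was called higher and 2 lower in KO, Dkc1 (log2 -0.49) and Nob1 (-0.39). Of 14 RNA polymerase I genes, 4 were lower (Znrd1 -0.81, Twistnb -0.60, Ubtf -0.46 and Rrn3 -0.39), and of 72 mitochondrial ribosomal protein genes 13 were lower and 1 higher, led by Mrpl3 (-0.72) and Mrps14 (-0.54). No gene of 17 other TOP mRNAs was called. Of 11 regulators only Mdm2, the p53 ubiquitin ligase, was called, at 0.85. The lists' medians lay between -0.18 and -0.05.

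The number of members called depended on single samples. Over both sets it was 5 without 1a, 6 without 1b or 1c, 8 without 1d, 10 without 1f and 5 without 2f. In these fits between 13.4% (without 1a) and 21.6% (without 2f) of all genes were called, and 16.9% without 1f. In set 1 alone it was 1 without 1a (5.53% of all genes) and 6 without 1f (12.1%). In set 2 alone it was 14 of 77 without 2f, where 17.8% of all genes were called. All of these were lower in KO except 1 member in the last. Markers of other cells moved with genotype: the sum over 14 feeder fibroblast markers was 155 to 198 CPM in KO and 33.3 to 50.7 CPM in WT of set 1, and 154 to 179 CPM in KO and 86.3 to 111 CPM in WT of set 2. Lum was at 0 counts in KO of set 1, and Lum, Postn and Dcn in WT of set 1. The sum over 10 ESC markers was 2086 to 2502 CPM in KO and 4206 to 4849 CPM in WT of set 1, and 1971 to 2438 CPM in KO and 3184 to 3336 CPM in WT of set 2. Primitive endoderm markers summed to 270 to 320 CPM in KO and 221 to 238 CPM in WT of set 1, and to 326 to 364 CPM in KO and 185 to 196 CPM in WT of set 2 (6 of 9 tested called higher over both sets). Neural markers summed to 336 to 424 CPM in KO and 578 to 684 CPM in WT of set 1, and to 388 to 444 CPM in KO and 640 to 666 CPM in WT of set 2. Single neural markers went both ways, with 1 of 5 tested called higher and 3 lower over both sets. In set 1 alone, 1 of 4 was called higher and 1 lower, with a median log2 fold change of 0.21. The part of these marker changes in the lower levels was not tested, and in bulk samples fewer cells of a type cannot be told apart from less RNA per cell.

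Whether the KO effect differed between the sets was tested as an interaction. It called 0 of 79 members in edgeR, where 0.828% of all genes were called (0.159% higher, 0.669% lower). At an unadjusted p under 0.05 there were 8 members, and DESeq2 called 0. A single member was called without 1f.

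RA lowered most ribosomal protein genes. In KO, 60 of 79 members tested were called lower and none higher, where 55.1% of all genes were called, 26.7% lower and 28.5% higher. In WT, 54 of 79 were called lower and none higher, where 47.2% of all genes were called, 22.5% lower and 24.7% higher. The median log2 fold change of the members was -0.67 in KO and -0.76 in WT, while that of all genes was -0.004 in KO and -0.03 in WT. Of the members, 75 (94.9%) were negative in both genotypes, against 43.6% of all genes. The called lists shared 51 members, 85% of the KO list and 94.4% of the WT list, while the genes called lower over all shared 71.7% of the KO list and 85% of the WT list. In neither genotype were 16 members called. WT after RA was a single sample, so its tests borrow the spread of the other set 2 groups, and KO after RA, titled KO1 for both samples, was compared with the untreated samples of both lines. The name under which 2i was deposited carries the code of the other KO line, so the KO RA samples may not be replicates of 1 line.

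**Figure D4:**
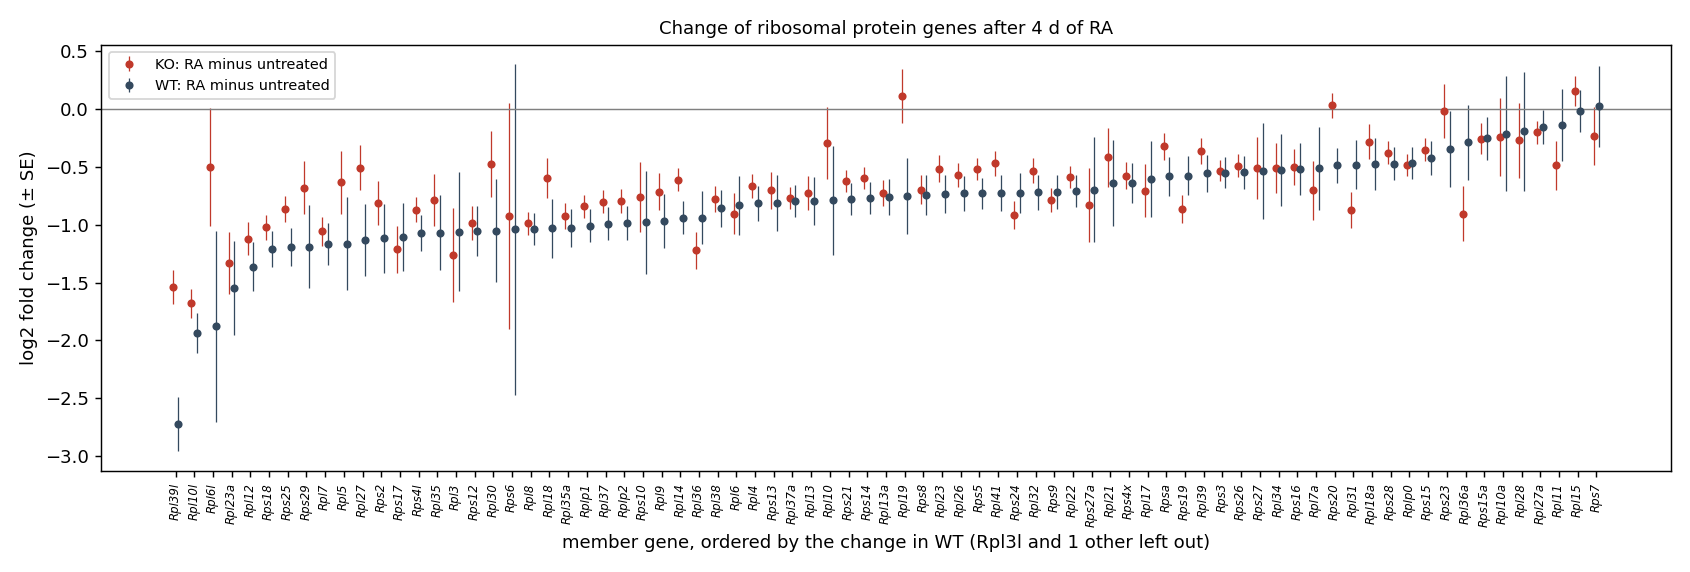
log2 fold change after RA (± SE) of 77 ribosomal protein genes in KO (red) and WT (dark), ordered by the change in WT; Rpl3l, with 0 counts in the WT sample, and 1 other member are left out. Nearly all lie below 0, and Rpl39l is lower in WT than in KO.

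The most abundant members fell in both genotypes. Rps14 stood at 7475 and 7053 CPM in KO after RA, against 10352, 11181, 10209 and 10880 CPM in untreated KO. In WT it stood at 7080 CPM after RA, against 11602 and 11447 CPM untreated. Its log2 fold changes were -0.60 (SE 0.10, adjusted p = 6.11e-06) in KO and -0.77 (SE 0.14, adjusted p = 3.49e-05) in WT. Rpl8 changed by -0.99 (SE 0.10) in KO and -1.03 (SE 0.14) in WT, and Rps3 by -0.53 (SE 0.09) in KO and -0.55 (SE 0.13) in WT, each called.

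All 3 stalk genes fell. Rplp1 changed by -0.84 (SE 0.10) in KO and -1.01 (SE 0.14) in WT, Rplp2 by -0.80 (SE 0.10) in KO and -0.98 (SE 0.15) in WT, and Rplp0 by -0.48 (SE 0.10) in KO and -0.46 (SE 0.14) in WT. Rplp0 stood at 707 and 655 CPM in KO after RA, against 902 to 971 CPM in untreated KO, and at 757 CPM in WT after RA, against 1037 and 961 CPM in untreated WT. Rpl5 was called in WT only (-1.16, SE 0.40, adjusted p = 0.0192), being at -0.63 (SE 0.27, adjusted p = 0.0522) in KO, and the difference between genotypes was not called (adjusted p = 0.776). Rpl11 was called in neither, at -0.49 (SE 0.21) in KO and -0.14 (SE 0.31) in WT.

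Rpl10l and Rpl39l fell most among members with counts in each sample. Rpl10l stood at 38.0 and 33.1 CPM in KO after RA, against 107 to 116 CPM in untreated KO, a log2 fold change of -1.68 (SE 0.13, adjusted p = 9.39e-12). In WT it stood at 57.4 CPM after RA, against 213 and 207 CPM untreated, a change of -1.94 (SE 0.17, adjusted p = 4.79e-10). Rpl39l stood at 30.5 and 29.0 CPM in KO after RA, against 66.7 to 95.1 CPM in untreated KO, a change of -1.54 (SE 0.15, adjusted p = 1.2e-09). In WT it stood at 17.4 CPM after RA, against 112 and 108 CPM untreated, a change of -2.72 (SE 0.23, adjusted p = 2.12e-10). RA samples lay below the untreated samples for both genes. Rpl39, its partner, changed by -0.36 (SE 0.12) in KO and -0.56 (SE 0.16) in WT. Rps4l changed by -0.87 (SE 0.11) in KO and -1.07 (SE 0.16) in WT.

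Rpl3l, the heart and muscle paralog of Rpl3, was near the limit of detection. It had 3 counts in KO after RA against 13 in untreated KO, and 0 counts in WT after RA against 21 in untreated WT. Of the 21 counts, 11 came from 1 library of 2a, at 6.21 CPM, while the other libraries of untreated WT stood at 0.678, 0.881 and 0.879 CPM and the floor of the WT RA sample (3 counts) was 0.768 CPM. No fold is given for this reason. It was called in WT only, where the call was lost with DESeq2 (adjusted p = 0.0662), when each library was a sample of its own (0.0775) and without 2c (0.0504).

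Rpl23a, a protein at the tunnel exit, changed by -1.33 (SE 0.27) in KO and -1.55 (SE 0.41) in WT, at 5.35 and 5.31 CPM in KO and 4.35 CPM in WT after RA, so it was among the members with few tags in set 2. Rpl12, at the base of the stalk, changed by -1.12 (SE 0.14) in KO and -1.36 (SE 0.21) in WT. Rpl36 changed by -1.22 (SE 0.16) in KO and Rpl3 by -1.26 (SE 0.40), which stood at 1.58 and 2.65 CPM after RA. The smallest called falls in KO were those of Rpsa (-0.32), Rps15 (-0.35), Rpl39 (-0.36) and Rps28 (-0.38). In WT they were those of Rps15 (-0.43), Rplp0 (-0.46), Rps28 (-0.47), Rps20 (-0.48) and Rps26 (-0.55). Several calls were lost without 1 sample. In KO these were Rpl3 (adjusted p = 0.143), Rps28 (0.0572), Rpl39 (0.134), Rps15 (0.0904) and Rpsa (0.105) without 2h, and Rpsa also without 2c (0.0527), 2f (0.0614) or 2i (0.116). In WT they were Rps15 without 2b (0.125), and Rplp0 (0.0551) and Rps20 (0.0853) without 2a.

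The levels of Rps20 differed in pattern between the genotypes. It stood at 1700 and 1712 CPM in KO after RA, against 1342 to 1811 CPM in untreated KO, and at 2007 CPM in WT after RA, against 2834 and 2535 CPM in untreated WT. RA and untreated samples overlapped in KO and did not in WT. The log2 fold change was 0.03 (SE 0.11, adjusted p = 0.822) in KO and -0.48 (SE 0.15, adjusted p = 0.0102) in WT, and the difference between the genotypes, 0.52 (SE 0.18), was not called (adjusted p = 0.228).

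Members with and without shared 3′ ends had medians near each other after RA. In KO the median log2 fold change was -0.61 over 19 members with no shared window, -0.62 over 15 with up to 50% and -0.70 over 45 with more. In WT these medians were -0.79, -0.72 and -0.79. The counts that follow are to be read against 60 of 79 members called lower in KO and 54 of 79 in WT. Among all genes, 26.7% were called lower in KO and 22.5% in WT. By subunit, 25 of 31 small and 35 of 48 large subunit members were called lower in KO, and 23 of 31 and 31 of 48 in WT. Of 16 members mutated in the human red cell disorder Diamond-Blackfan anaemia, 12 were called lower in each genotype, among them Rpl35a (-0.92 in KO, -1.03 in WT) and Rps24 (-0.92 in KO, -0.72 in WT). Of 8 listed members in or around the exit tunnel, 7 were called lower in KO and 5 in WT.

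Genes that build the ribosome were lower too. Beside the lists below, 26.7% of all genes were called lower and 28.5% higher in KO, and 22.5% lower and 24.7% higher in WT. Of 43 assembly genes, 40 were called lower in each genotype and none higher, with a median of -0.93 in KO and -1.11 in WT. Among them Dkc1, the pseudouridine synthase of snoRNPs, changed by -1.92 in KO and -2.34 in WT, and Ncl, which encodes nucleolin, by -1.29 in KO and -1.41 in WT. Of 14 RNA polymerase I genes, 13 were lower in KO and 12 in WT, among them Polr1b (-1.87 in KO, -1.90 in WT). Of 17 other TOP mRNAs, 12 were lower and 1 higher in KO and 11 lower and 1 higher in WT, among them Npm1 (-1.29 in KO, -1.33 in WT). Of 75 mitochondrial ribosomal protein genes, 44 were lower in KO and 42 in WT, with 1 higher in each. Mycn, a transcription factor that drives ribosome synthesis, changed by -1.99 in KO and -1.22 in WT, and Mdm2 was called higher in both, at 0.52 (SE 0.11) in KO and 1.23 (SE 0.16) in WT. Of the 11 regulators, 6 were lower and 3 higher in KO, and 6 lower and 1 higher in WT.

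Cell type markers moved with RA. The sum over the 14 feeder markers was 960 to 984 CPM in KO and 956 CPM in WT after RA, against 154 to 179 CPM in untreated KO and 86.3 to 111 CPM in untreated WT. The 10 ESC markers summed to 644 to 648 CPM in KO and 595 CPM in WT after RA, against 1971 to 2438 CPM in untreated KO and 3184 to 3336 CPM in untreated WT. Primitive endoderm markers summed to 530 to 535 CPM in KO after RA, against 326 to 364 CPM untreated (7 of 9 called higher, 1 lower). In WT they summed to 295 CPM, against 185 to 196 CPM (2 higher, 1 lower). Neural markers summed to 341 to 401 CPM in KO, against 388 to 444 CPM (4 of 7 higher, 2 lower). In WT they summed to 424 CPM, against 640 to 666 CPM (3 higher, 1 lower). The part of these markers in the lower levels of ribosomal protein genes was not tested.

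After RA, KO was compared with the single WT sample. Set stood at 269 and 179 CPM in KO after RA, against 546 CPM in WT after RA, and that WT value lies within the 260 to 559 CPM of untreated KO in set 2. Primitive endoderm markers summed to 530 to 535 CPM in KO and 295 CPM in WT after RA, with 3 of 9 called higher, and their part was not tested. None of 79 members was called in edgeR, where 0.403% of all genes were (0.293% higher, 0.109% lower), with 3 members at an unadjusted p under 0.05 and 0 called in DESeq2. Rpl10l stood at 38.0 and 33.1 CPM in KO after RA, against 57.4 CPM in WT after RA, a log2 fold change of -0.71 (SE 0.18, adjusted p = 0.0794). A single member was called without 2e or without 2f. The RA effect itself differed between genotypes for 1 member, Rpl39l, where 1.10% of all genes were called (0.362% higher, 0.737% lower): the difference of KO minus WT was 1.19 on the log2 scale (SE 0.28, adjusted p = 0.0295), and the call was lost without 2a (adjusted p = 0.0702), 2b (0.113), 2h (0.142) or 2i (0.0938). The contrasts of set 2 share their control samples.

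**Figure D5:**
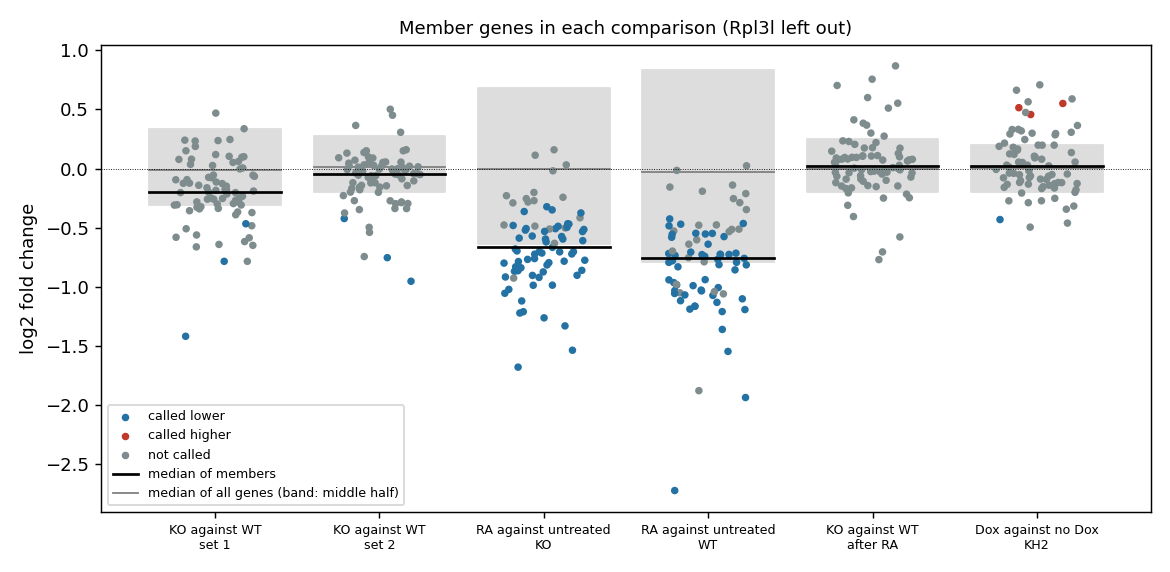
log2 fold change of each ribosomal protein gene (points, coloured by call) in 6 comparisons, with the members' median (black) and the median and quartiles of all genes (grey); Rpl3l is left out. The members' median is at -0.67 in KO and -0.76 in WT after RA, and between -0.20 and 0.02 in the other 4.

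Few members were called after 24 h of Dox. In KH2 cells 4 of 78 members were called, 3 higher and 1 lower with Dox, where 1.80% of all genes were called (0.896% higher, 0.904% lower), and the median log2 fold change was 0.02. Rps19, a small subunit protein mutated in Diamond-Blackfan anaemia, stood at 2094 and 2528 CPM with Dox, against 1652 and 1732 CPM without (log2 0.46, SE 0.11, adjusted p = 0.0255). Rpl23, a large subunit protein that binds Mdm2, stood at 236 and 287 CPM with Dox, against 174 and 194 CPM without (0.51, SE 0.12, adjusted p = 0.0261). Rpl15 stood at 69.7 and 60.3 CPM with Dox, against 42.0 and 47.2 CPM without (0.55, SE 0.15, adjusted p = 0.0491). Rpl37 stood at 1073 and 1097 CPM with Dox, against 1336 and 1601 CPM without (-0.43, SE 0.11, adjusted p = 0.0336). The groups did not overlap for any of these.

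These calls rested on few samples. The number of members called was 1 without the first no-Dox sample, 0 without the second, and 0 when all samples of the series entered 1 fit. With the replicate block it was 12 (8 higher, 4 lower), where 5.62% of all genes were called. The members lower in KO had log2 fold changes of 0.10 (Rpl10l), 0.20 (Rpl39l) and -0.34 (Rps20), and none was called. Rps20 stood at 4059 and 5344 CPM with Dox, against 5468 and 6529 CPM without. Set stood at 1205 and 1050 CPM with Dox, against 971 and 898 CPM without. Whether tags of the SETa transgene are counted as Set was not tested, so its induction is not shown here. Feeder markers summed to 430 to 527 CPM with Dox and 715 to 800 CPM without, and their part was not tested.

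Of the members, 6 were not tested in 1 or more comparisons. Rpl24 and Rpl32l had 35 and 60 counts in all samples and passed the filter nowhere, and Rpl3l, Rpl6l, Rpl29 and Rps6 passed in some. Rps6, the substrate of the S6 kinases, had 331 counts in WT set 1 but 12 in WT set 2, and Rpl29 had 256 counts in KH2 without Dox but 10 in WT set 2.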

How the data were processed

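The deposited files hold read counts per gene, made by the authors with featureCounts 1.6.0 with the Ensembl 97 gene models (GRCm38). Per the file headers, the command set no further option, so counting was unstranded and left out multi-mapping reads and reads overlapping several genes. The submitters' processing notes name STAR 2.5.4b and Subread 2.0.0. Per the labels' protocols, 500 ng RNA went into QuantSeq 3′ libraries. Samples totalled 806412 to 10217040 counts; a count of 0 allows up to 3.

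Libraries of 1 title code were summed. edgeR 4.0.16 (R 4.3.3, limma 3.58.1) fitted quasi-likelihood models with TMM scaling to genes passing filterByExpr (minimum count 10, total 15), with Benjamini-Hochberg adjustment over all of them. The SE is the size of the log2 fold change over the root of F. DESeq2 1.42.0, other scalings, filters and left-out samples were alternatives. The steps were tested on simulated counts.

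Members and lists were chosen with earlier results of these data known. Named were the members called (past 10, the 5 lowest and 5 highest), the 5 most abundant, stalk, 5S and paralog members, and up to 4 called genes per list. Results of 2 genes that this rule names are not reported here.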

Additional observations from a re-analysis of the deposited data

Results flagged for a closer look

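Single samples stood apart from the rest of their group in 5 cases, by the gap to the nearest sample relative to the range. Chance flags about 1 in 20 groups, and many more groups than these were examined. In KO of set 1 these were Rpl8 at 2309 CPM, Rpl5 at 548 CPM and Rpl3l at 1.38 CPM, the other Rpl3l samples of that group being at 0. That Rpl3l value is 2 counts in 1f, under the floor of the sample (3 counts, 2.08 CPM), and cannot be told from 0. In KO of set 2 they were Rpl5 at 12.3 CPM and Rplp0 at 971 CPM. The RA effect on Rpl39l differed between genotypes by 1.19 on the log2 scale, KO minus WT (adjusted p = 0.0295 in edgeR), and its adjusted p ran between 0.00272 and 0.354 over 14 alternatives.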

How the results depend on the processing

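Member counts here stand beside the share of all genes called in the main fits, which is not the share of each alternative fit. For KO this was 19.0% over both sets, 12.2% in set 1, 9.19% in set 2 and 0.828% for the interaction. For Dox it was 1.80%, for KO after RA 0.403% and for the RA difference 1.10%. The share in an alternative fit can be higher, as given above for sub-batch B and for Dox with the replicate block. It is not given for each setting, so no count here is read as an excess of members. Over both sets the KO comparison called 6 members with DESeq2 size factors, 14 with no filter, 8 with the DESeq2 Wald test, 6 with each library as a sample, 9 with KO1 and KO2 as separate groups and 6 with sub-batch as a covariate. Each included Rpl10l, Rpl39l and Rps20. In set 1 it called 13 with no filter, 7 with separate lines and 15 in a fit of all samples. In set 2 it called 5 with DESeq2 size factors, 7 with no filter, 5 in a fit of all samples, 5 with sub-batch as a covariate, 1 within sub-batch A and 12 within B. The interaction called 2 with no filter. Dox called 2 with the DESeq2 Wald test and 0 in a fit of all samples, and the RA difference 0 with that test and 0 with each library as a sample. Leaving out 1 sample gave 3 to 10 over both sets, 1 to 6 in set 1, 2 to 14 in set 2, 0 to 1 for the interaction, 0 to 5 for Dox, 0 to 1 for KO after RA and 0 to 1 for the RA difference. The cause was not tested. Without Rps14 the share differences were -0.245 points for KO in set 2, -1.13 for RA in KO and -1.34 in WT. In set 1 the share without Rps14 averaged 7.99% in KO and 8.73% in WT, with overlapping ranges. The Dox share difference ran between -0.475 and 0.125, turning positive at 0.125 without the first Dox sample and 0.12 without the second no-Dox sample. Of 506 settings of named members, 439 kept the call, 67 lost it and 0 changed sign.

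With the replicate block the counts were 5 over both sets and 12 for Dox. Same-numbered samples correlated at -0.254 to 0.21, so the numbers were not taken to pair samples. Sub-batches, their covariate and the separate counts per line and set were chosen after seeing the data. Set 1 samples hold the fewest counts, and members under 10 CPM limit what set 2 can show.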
